A study of Mus musculus with 16 samples.

Results

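The 51 genes described here encode the machinery of DNA replication and cell division in mouse bone marrow-derived macrophages. They were taken by gene name from the count table, which held 56748 genes, and fell into 26 replication genes, 14 mitosis genes and 11 cyclins, cyclin-dependent kinases (CDKs), CDK inhibitors and Myc. All 51 were found, and all 51 passed the filter on low counts. Bone marrow cells of 4 wild-type male C57BL6 mice were grown into macrophages, and each mouse gave 1 poly(A) RNA library to each of 4 groups of 4 libraries. The first group received 10 µM SR9009, a compound that activates REV-ERB nuclear receptors (repressors in the circadian clock), for 16 hours and then 100 ng/mL lipopolysaccharide (LPS) for 6 hours. The second received LPS, a bacterial ligand of Toll-like receptor 4, at the same dose and time, and its labels do not say whether the vehicle was given overnight. The third received SR9009 and the fourth its vehicle, DMSO. In all 4 groups the medium held supernatant of L929 cells, a source of the macrophage growth factor CSF1. The series title names the clock control of fibrinolytic activity in innate immune cells. The labels give no batch and do not say whether the cultures were set up together.

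Total counts were 12616442 to 24214863 per library. All 8 macrophage markers looked up were tested, and their summed level was 5460 to 10300 CPM (counts scaled to a common library size), while the 5 progenitor markers, led by Cd34, summed to at most 1.95 CPM. The SR9009 library of mouse 1 stood apart, with the lowest total and 13298 genes with a count, against 16419 to 18947 in the other libraries. On the scale of log2(CPM + 0.5), 10 of the 51 genes lay more than 1 above the mean of the other 3 SR9009 libraries in it, and 19 lay more than 1 below. These deviations followed the GC content of the longest annotated transcript, with a Spearman rho of −0.754 over the 51 genes and −0.747 over 13265 tested genes; genes are not independent replicates. Kif11 had 352 CPM in that library and a mean of 82.3 CPM in the other 3 SR9009 libraries, whereas Pold1 had 1.39 CPM in it and a mean of 48.6 CPM in the others. CPM values are counts over the TMM-scaled library size, and values of 4 libraries are listed for mice 1 to 4 in that order.

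In background, a cell that commits to division loads the MCM2 to MCM7 helicase onto replication origins, makes deoxynucleotides and copies its genome, and then segregates the chromosomes under the control of cyclin B, Aurora and Polo kinases and the spindle checkpoint. Entry is driven by D-type and E-type cyclins with CDK4, CDK6 and CDK2, which free E2F factors from the retinoblastoma protein, and is opposed by inhibitors such as p21 and p27. Bone marrow-derived macrophages divide in response to CSF1, and LPS is known to stop their proliferation.

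LPS was first set against DMSO, which asks where the division programme stood after 6 hours of LPS in cells without SR9009. Of the 51 genes, 25 fell and 4 rose (edgeR quasi-likelihood test, Benjamini-Hochberg adjusted p under 0.05 over 13438 genes). The share that fell was 49.0% of the 51 genes, against 20.4% of all tested genes, and the share that rose was 7.84%, against 19.4% of all tested genes. Replication genes fell in 17 of 26 cases with none higher, mitosis genes fell in 5 of 14 with none higher, and the cyclin, kinase and inhibitor group held 4 that rose and 3 that fell among 11. The median log2 fold change was −1.43 for replication, −1.19 for mitosis and 0.66 for the regulators, against −0.08 over all tested genes. The LPS and DMSO libraries did not overlap in 22 genes that were lower with LPS and 4 that were higher, against 30.5% and 27% of all tested genes. With upper-quartile scaling the median of all tested genes was −0.28. Because the RNA comes from whole cultures, fewer dividing cells and less of these RNAs per cell cannot be told apart. The number that fell changed when a mouse was left out of all 4 groups: it was 15 without mouse 2, 12 without mouse 3, 12 without mouse 4 and 31 without mouse 1. The share of all tested genes that fell moved the same way, at 13.1%, 12.8% and 12.5% without mice 2, 3 and 4 and 28.4% without mouse 1. That share was also 30.6% with only the SR9009 library of mouse 1 left out, which is in neither group compared. It was 32.4% in a fit of the LPS and DMSO groups alone, with all 4 mice kept. The counts therefore do not show a dependence on the mice alone. The number that rose was 2, Ccnd2 and Cdkn1a, without mouse 2, 3 or 4, when 13.5%, 13.6% and 13.5% of all tested genes rose. Of the genes described in full below, 16 were picked for the smallest p of their role in this comparison, which favours calls that hold. Among these 16, Mcm7, Cdc6, Prim1, Pola1, Rrm2, E2f2, Cdc20, Bub1b, Ccnd2, Cdk2 and Cdkn1a passed under all 16 alternative settings. Tk1, E2f1, Ccnd3, Cdk4 and Myc missed the threshold without mouse 2, 3 or 4. Tk1, Cdk4 and Myc also missed it with limma-voom.

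**Figure D1:**
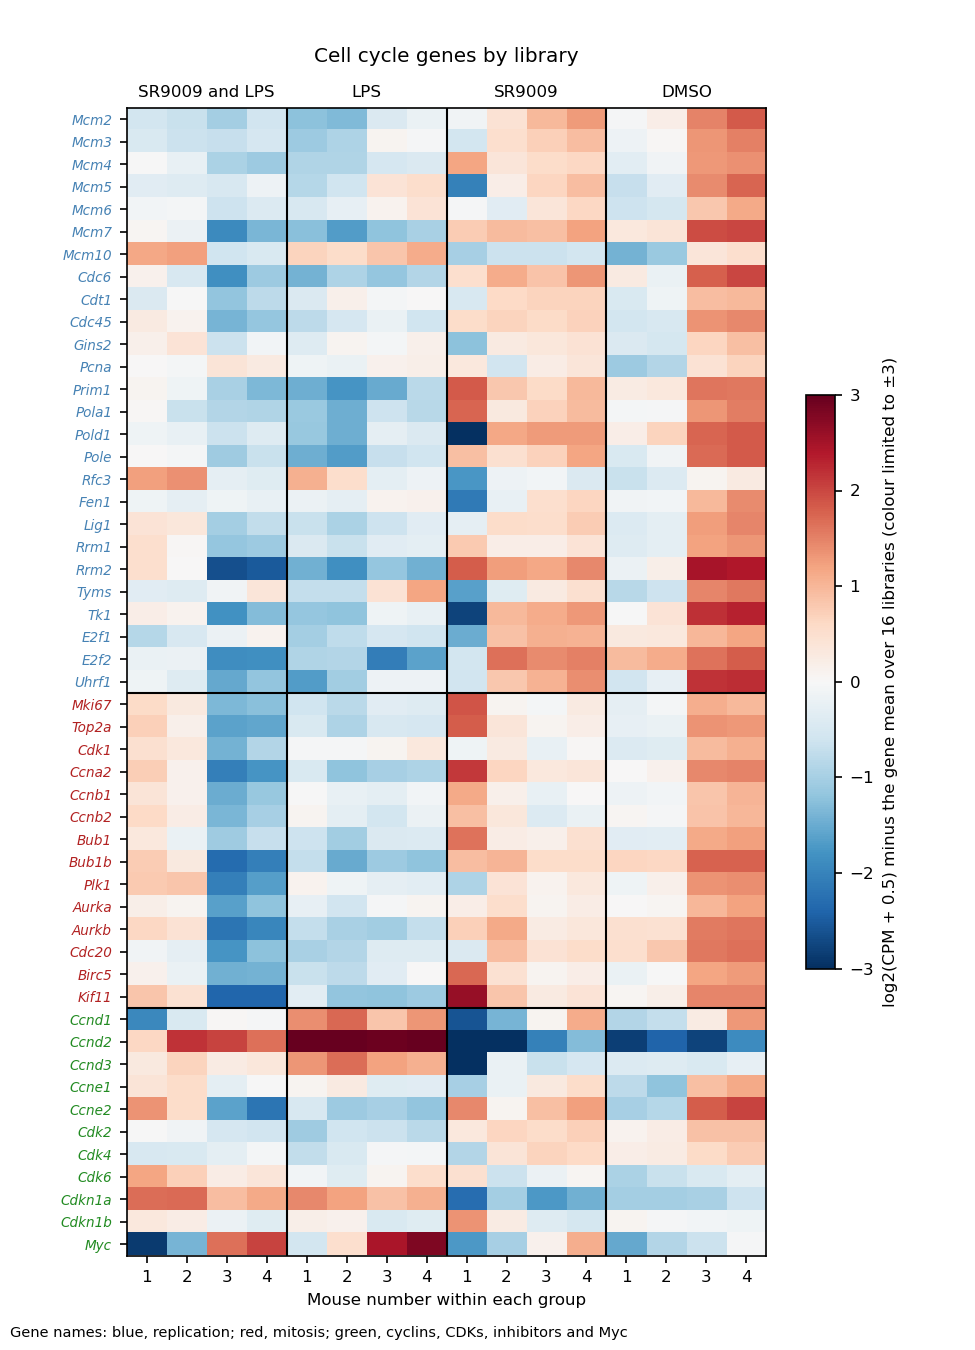
Heat map of the 51 genes in the 16 libraries, with columns grouped as SR9009 and LPS, LPS, SR9009 and DMSO and numbered by mouse; colour is log2(CPM + 0.5) minus the gene's mean over the 16 libraries, limited to ±3. The replication rows are mostly darkest red in the DMSO libraries of mice 3 and 4. Mitosis rows are red there too, but several, such as Kif11, Ccna2 and Mki67, are darkest in the SR9009 library of mouse 1. Ccnd2 is red in all 8 libraries with LPS.

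Promoters are shown for 4 of the genes that fell with LPS, since E2F factors and the DREAM complex are known to act through short promoter motifs of cell cycle genes. Promoters of 42 of the 51 genes were matched by symbol to RefSeq windows of 300 bases (250 before and 50 after the annotated start, GRCm38.p6). The sequences below are the 150 bases before the start on the gene's own strand, and capitals mark motif matches on either strand. Cdc6, the licensing factor (chr11:98908001-98908150, plus strand), Pola1, the catalytic subunit of DNA polymerase alpha (chrX:93632156-93632305, minus strand), Cdk2, the S phase kinase (chr10:128705052-128705201, minus strand), and Cdc20, the activator of the anaphase-promoting complex (chr4:118437344-118437493, minus strand), read as follows.
Cdc6: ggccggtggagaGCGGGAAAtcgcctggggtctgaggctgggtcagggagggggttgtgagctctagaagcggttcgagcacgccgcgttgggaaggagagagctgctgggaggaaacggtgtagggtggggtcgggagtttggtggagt
Pola1: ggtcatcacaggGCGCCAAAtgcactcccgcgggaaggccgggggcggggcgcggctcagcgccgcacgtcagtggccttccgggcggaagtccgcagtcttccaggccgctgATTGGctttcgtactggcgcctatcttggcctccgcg
Cdk2: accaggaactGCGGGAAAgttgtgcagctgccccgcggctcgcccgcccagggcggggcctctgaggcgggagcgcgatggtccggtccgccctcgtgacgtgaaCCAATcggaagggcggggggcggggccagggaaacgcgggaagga
Cdc20: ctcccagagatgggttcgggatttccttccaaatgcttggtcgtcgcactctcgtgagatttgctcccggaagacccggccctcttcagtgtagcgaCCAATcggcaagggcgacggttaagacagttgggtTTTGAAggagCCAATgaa
The E2F motif was searched as TTTCCCGC, TTTCGCGC, TTTGCCGC or TTTGGCGC, the cell cycle homology region (CHR) as TTTGAA or TTCGAA, and the CCAAT box as CCAAT, with no overlap between the 3 motifs in these 4 sequences. Cdc6 and Pola1 each had an E2F match starting 138 bases before the start, and Cdk2 had one at 140 bases. Cdc20 had a CHR match at 18 bases and CCAAT matches at 53 and 8 bases before the start. All 4 sequences thus hold an E2F or CHR match, which not every gene that fell had within 150 bases. Mcm7 had an E2F match at 165 bases and a CHR match at 173, and Bub1b had a CHR match at 188. Cdkn1a, which rose, had no match to any of the 3 motifs.

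An E2F match stood in the window of 12 of the 23 replication genes with a promoter (52.2%), 1 of 12 mitosis genes (8.33%, Cdk1) and 1 of 7 regulators (14.3%, Cdk2), against 2.6% of all 27025 genes in the promoter table. A CHR match was found in 10 of 12 mitosis promoters (83.3%) and 6 of 23 replication promoters (26.1%), against 21.7% of all genes, and in 0 of 7 regulators. The CCAAT box was found in 11 of 12 mitosis promoters (91.7%), 15 of 23 replication promoters (65.2%) and 3 of 7 regulators (42.9%), against 41.1% of all genes. Among the replication genes, 8 of the 12 with an E2F match fell with LPS, and 7 of the 11 without one fell. A match describes letters in the window and is not evidence of binding, and a missing match is not evidence that binding is absent. Control by E2F factors was not tested.

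Among the 11 licensing and helicase genes, 6 fell with LPS and none rose. Mcm7, a subunit of the replicative helicase (ENSMUSG00000029730, chromosome 5, 138162845 to 138170684, minus strand, GRCm39), had 11.5, 8.46, 12.0 and 14.2 CPM in LPS cells, against 35.4, 37.0, 112 and 116 CPM in DMSO cells, a log2 fold change of −2.70 ± 0.47 (SE; edgeR adjusted p = 0.000286). All 4 LPS libraries lay below all 4 DMSO libraries, and within DMSO the libraries of mice 3 and 4 were the highest. Cdc6, which loads the helicase onto origins (ENSMUSG00000017499, chromosome 11, 98798627 to 98814766, plus strand), had 1.33, 2.06, 1.66 and 2.14 CPM in LPS cells and 5.37, 3.73, 16.4 and 19.1 CPM in DMSO cells, a log2 fold change of −2.63 ± 0.55 (adjusted p = 0.00133). Its groups did not overlap either. Mcm2, Mcm3 and Mcm4, further helicase subunits, fell by 1.85, 1.28 and 1.46 on the log2 scale, and Cdc45, which joins the active helicase, fell by 1.30. The remaining subunits gave smaller differences that missed the threshold: Mcm5 stood at −0.90 and Mcm6 at −0.42 on the log2 scale (adjusted p = 0.234 and 0.386). Mcm6 had 56.0, 66.4, 84.9 and 104 CPM in LPS cells and 51.3, 54.6, 138 and 172 CPM in DMSO cells, so that the LPS libraries lay between the DMSO libraries of mice 1 and 2 and those of mice 3 and 4. Mcm10, an initiation factor that is not part of the helicase ring, had 51.8, 48.1, 57.7 and 70.2 CPM in LPS cells and 11.8, 14.6, 42.2 and 46.4 CPM in DMSO cells, and was higher in 4 of 4 mice (log2 fold change 0.99 ± 0.46, adjusted p = 0.103). With mouse number in the model, Cdc45 missed the threshold (adjusted p = 0.0746). Counting that model, it missed under 9 of 16 alternative settings.

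Of the 8 fork and polymerase genes, Prim1, Pola1, Pold1, Pole and Lig1 fell. Prim1, the primase that starts each new strand, had 2.25, 1.75, 2.16 and 3.85 CPM in LPS cells and 8.56, 9.04, 22.9 and 22.4 CPM in DMSO cells (log2 fold change −2.65 ± 0.47, edgeR adjusted p = 0.000326). Pola1 had 6.82, 5.26, 9.86 and 8.42 CPM in LPS cells and 14.9, 15.1, 39.5 and 45.5 CPM in DMSO cells (log2 fold change −1.92 ± 0.42, adjusted p = 0.00181). In both genes every LPS library lay below every DMSO library, and within DMSO the libraries of mice 3 and 4 were well above those of mice 1 and 2. The catalytic subunits of polymerases delta and epsilon, Pold1 and Pole, fell by 2.06 and 2.21 on the log2 scale. Lig1, the ligase that joins Okazaki fragments, fell by 1.40. Pcna, the sliding clamp that also serves DNA repair, had 98.6, 94.0, 118 and 122 CPM in LPS cells and 50.9, 58.5, 146 and 172 CPM in DMSO cells (log2 fold change 0.02 ± 0.34, adjusted p = 0.977). Its LPS libraries again lay between the DMSO libraries of mice 1 and 2 and those of mice 3 and 4. Rfc3, a subunit of the clamp loader, had a log2 fold change of 0.54, and Fen1, the flap endonuclease, of −0.91; neither passed.

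Of the 4 nucleotide supply genes, Rrm1, Rrm2 and Tk1 fell and Tyms (thymidylate synthase) did not pass. Rrm2, the regulated subunit of ribonucleotide reductase (ENSMUSG00000020649, chromosome 12, 24758240 to 24764145, plus strand), had 7.99, 5.94, 9.80 and 7.99 CPM in LPS cells and 19.8, 25.4, 128 and 121 CPM in DMSO cells. Its log2 fold change of −3.21 ± 0.74 was the most negative of the 51 genes (adjusted p = 0.00262, edgeR). Tk1, thymidine kinase of the salvage pathway, had 8.49, 8.31, 17.9 and 16.8 CPM in LPS cells and 19.7, 26.4, 92.2 and 100.3 CPM in DMSO cells (log2 fold change −2.21 ± 0.75, adjusted p = 0.0268). The groups did not overlap in either gene, and the DMSO libraries of mice 3 and 4 were at least 92.2 CPM in both, whereas those of mice 1 and 2 were at most 26.4 CPM. Rrm1, the large reductase subunit, fell by 1.10 on the log2 scale and missed the threshold with mouse number in the model (adjusted p = 0.0649). Counting that model, it missed under 9 of 16 alternative settings.

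All 3 genes of the E2F and chromatin group fell. E2f2, an activator of S phase genes, had 12.2, 12.3, 5.05 and 7.28 CPM in LPS cells and 44.7, 50.8, 71.7 and 82.0 CPM in DMSO cells (log2 fold change −2.76 ± 0.52, edgeR adjusted p = 0.000568). E2f1, its paralog, had 12.6, 14.9, 18.1 and 16.9 CPM in LPS cells and 31.6, 32.1, 51.9 and 59.4 CPM in DMSO cells (log2 fold change −1.48 ± 0.42, adjusted p = 0.0107). Neither gene's groups overlapped, and the DMSO libraries of mice 1 and 2 were closer to those of mice 3 and 4 than in Rrm2 or Tk1. Uhrf1, which guides maintenance DNA methylation at the fork, fell by 2.07.

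The mitosis group was lower in direction in all 14 genes, but 5 passed: Cdc20, Bub1b, Bub1, Aurkb and Ccna2. Cdc20 had 15.4, 16.2, 23.1 and 23.3 CPM in LPS cells and 43.6, 54.2, 91.8 and 96.2 CPM in DMSO cells (log2 fold change −1.87 ± 0.39, edgeR adjusted p = 0.0013). Bub1b, a spindle checkpoint kinase-like protein, had 27.2, 15.6, 20.8 and 19.3 CPM in LPS cells and 70.6, 70.2, 156 and 156 CPM in DMSO cells (log2 fold change −2.45 ± 0.57, adjusted p = 0.00285). Both genes had no overlap between groups. Bub1, another checkpoint kinase, fell by 1.23, Aurkb, the kinase of the chromosomal passenger complex, fell by 2.01, and Ccna2, cyclin A2, fell by 1.82. The proliferation marker Mki67 had 144, 124, 172 and 167 CPM in LPS cells and 182, 209, 466 and 428 CPM in DMSO cells (log2 fold change −1.08 ± 0.51, adjusted p = 0.102). Top2a, the topoisomerase that untangles chromosomes, had 158, 115, 155 and 153 CPM in LPS cells and 185, 191, 552 and 541 CPM in DMSO cells (log2 fold change −1.34 ± 0.55, adjusted p = 0.0646). In both, the LPS libraries lay below all DMSO libraries, and the difference was smaller in mice 1 and 2 than in mice 3 and 4. Cdk1, the mitotic kinase, had 51.6, 51.5, 55.9 and 65.6 CPM in LPS cells and 39.5, 40.8, 102 and 112 CPM in DMSO cells, so that LPS was higher than DMSO in mice 1 and 2 and lower in mice 3 and 4. Of the others, log2 fold changes were between −1.85 (Kif11, a spindle motor) and −0.65 (Ccnb1, cyclin B1), with an adjusted p of 0.0505 for Kif11, which passed with mouse number in the model.

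The regulators split by role. Ccnd2, cyclin D2 (ENSMUSG00000000184, chromosome 6, 127102125 to 127129156, minus strand), had 185, 220.5, 132 and 160.5 CPM in LPS cells and 1.96, 2.77, 2.04 and 4.21 CPM in DMSO cells, a log2 fold change of 5.99 ± 0.57 (edgeR adjusted p = 9.00e-07) and the largest rise among the 51 genes. Ccnd3, cyclin D3, had 237, 301, 220.2 and 200.1 CPM in LPS cells and 71.3, 72.2, 68.6 and 79.8 CPM in DMSO cells (log2 fold change 1.72 ± 0.48, adjusted p = 0.00982). Neither gene's groups overlapped. Ccnd1, cyclin D1, had 103, 130.5, 70.3 and 99.2 CPM in LPS cells and 21.0, 23.9, 46.3 and 98.0 CPM in DMSO cells; the groups overlapped through the DMSO library of mouse 4, and the log2 fold change of 1.09 ± 0.66 did not pass (adjusted p = 0.208), though it did with mouse number in the model. Cdkn1a, which encodes the CDK inhibitor p21 (ENSMUSG00000023067, chromosome 17, 29309950 to 29319701, plus strand), had 1388, 1167, 939 and 1068 CPM in LPS cells and 249, 250.2, 259 and 328 CPM in DMSO cells (log2 fold change 2.07 ± 0.27, adjusted p = 1.91e-05). Every LPS library was far above every DMSO library. Cdkn1b, which encodes p27, differed by −0.06 ± 0.34 on the log2 scale (adjusted p = 0.908).

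Cdk2 (ENSMUSG00000025358, chromosome 10, 128533808 to 128540900, minus strand) had 16.1, 22.5, 21.8 and 19.3 CPM in LPS cells and 36.8, 39.8, 62.9 and 63.6 CPM in DMSO cells (log2 fold change −1.35 ± 0.23, edgeR adjusted p = 0.00019). Cdk4, the partner of D-type cyclins, had 36.4, 44.3, 59.2 and 58.7 CPM in LPS cells and 70.0, 72.4, 90.5 and 103 CPM in DMSO cells (log2 fold change −0.76 ± 0.28, adjusted p = 0.0438). Both kinases fell without overlap between groups, while Cdk6, the other partner of D-type cyclins, had a log2 fold change of 0.65 and was higher in 4 of 4 mice (adjusted p = 0.0728). Ccne2, cyclin E2, fell by 2.19 but had 4.49, 2.74, 2.96 and 2.57 CPM in LPS cells and 2.96, 3.31, 24.0 and 27.8 CPM in DMSO cells, so that the difference lay in mice 3 and 4 and the groups overlapped. With mouse number in the model Ccne2 missed the threshold (adjusted p = 0.0712). Counting that model, it missed the threshold under 10 of 16 alternative settings. Myc, a transcription factor that promotes growth and S phase entry, had 3.49, 7.70, 31.5 and 39.9 CPM in LPS cells and 1.50, 2.65, 3.24 and 5.19 CPM in DMSO cells (log2 fold change 2.71 ± 1.04, adjusted p = 0.0494). Its groups overlapped through the LPS library of mouse 1, and in LPS cells the libraries of mice 3 and 4 were far above those of mice 1 and 2. Myc missed the threshold under 8 of 16 alternative settings.

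Across the 51 genes, 31 were lower in LPS than in DMSO in 4 of 4 mice (39.7% of all tested genes were), and 7 were higher in 4 of 4 mice (33.5% of all tested genes were). The 7 were Mcm10, Ccnd1, Ccnd2, Ccnd3, Cdk6, Cdkn1a and Myc. The size of the difference varied between mice: the median log2 difference over the 51 genes was −0.267 in mouse 1, −0.661 in mouse 2, −1.51 in mouse 3 and −1.61 in mouse 4. Medians over all tested genes were −0.127 to −0.037.

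The comparison of SR9009 and LPS with SR9009 asks for the LPS response in SR9009-treated cells. Of the 51 genes, 12 fell (23.5%, against 15.8% of all tested genes) and 3 rose (5.88%, against 14.5%). The genes that fell were Mcm2, Mcm4, Mcm7, Cdc6, Cdt1, Prim1, Pola1, Rrm2, E2f2, Cdc20, Birc5 and Cdk2, and those that rose were Ccnd2, Cdkn1a and Mcm10. Of the 12, 10 had also fallen in LPS against DMSO, which is 83.3% of the 12 and 40.0% of the 25; the exceptions were Birc5, an inhibitor of apoptosis in the chromosomal passenger complex, and Cdt1, which licenses origins with Cdc6. The median log2 fold change was −1.06 for replication, −1.0 for mitosis and 0.17 for the regulators, against −0.12 over all tested genes (−0.25 with upper-quartile scaling). Groups did not overlap in 10 genes that were lower and 3 that were higher, against 13.4% and 13.9% of all tested genes. The number that fell was 19 without mouse 1, 6 without mouse 2, 2 without mouse 3 and 0 without mouse 4, when 20.6%, 8.31%, 8.8% and 8.69% of all tested genes fell. With mouse number in the model, Mcm10 (adjusted p = 0.0636), Cdt1 (0.0543), Rrm2 (0.0656), Cdc20 (0.0605) and Birc5 (0.0567) missed the threshold, and Ccnd3 (0.049) and Mcm3 passed it. Without the SR9009 library of mouse 1, 15 fell and 4 rose, against 20.8% and 22.7% of all tested genes. Mcm4 (adjusted p = 0.0609), Mcm10 (0.0626), Rrm2 (0.0689) and Birc5 (0.165) then missed the threshold, and E2f1, Tk1, Cdk4 and Ccnd3 were among those that passed. Over the 16 alternative settings, Cdt1 missed the threshold in 10, Birc5 in 9 and Rrm2 in 8.

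Mcm7 had 29.3, 24.9, 7.18 and 10.6 CPM with SR9009 and LPS and 48.4, 54.7, 53.6 and 65.7 CPM with SR9009 (log2 fold change −1.63 ± 0.45, edgeR adjusted p = 0.0122). Rrm2 had 32.2, 22.8, 3.19 and 3.50 CPM with SR9009 and LPS and 80.1, 54.7, 50.6 and 62.1 CPM with SR9009 (log2 fold change −2.0 ± 0.70, adjusted p = 0.0403). In these genes no library with both agents reached the SR9009 libraries, and those of mice 1 and 2 were nearer to them. E2f2 had 20.1, 20.5, 5.92 and 6.10 CPM with SR9009 and LPS and 15.7, 73.5, 62.1 and 66.9 CPM with SR9009 (log2 fold change −2.05 ± 0.51, adjusted p = 0.00586), and the SR9009 library of mouse 1 overlapped the other group. Cdk2 had 34.0, 31.5, 24.0 and 22.8 CPM with SR9009 and LPS and 42.8, 53.7, 50.2 and 56.9 CPM with SR9009, with no overlap (log2 fold change −0.86 ± 0.22, adjusted p = 0.00787). Cdkn1a had 1624, 1660.0, 968 and 1120.0 CPM with SR9009 and LPS and 104, 252, 154 and 186 CPM with SR9009, also with no overlap (log2 fold change 2.95 ± 0.28, adjusted p = 1.17e-06). Mcm10 had 72.6, 76.5, 21.4 and 23.3 CPM with SR9009 and LPS and 16.0, 20.6, 20.7 and 22.1 CPM with SR9009 (log2 fold change 1.29 ± 0.47, adjusted p = 0.0464). Its libraries of mice 1 and 2 with both agents were far above those of mice 3 and 4, which lay within or just above the SR9009 range, and it missed the threshold under 13 of 16 alternative settings.

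**Figure D2:**
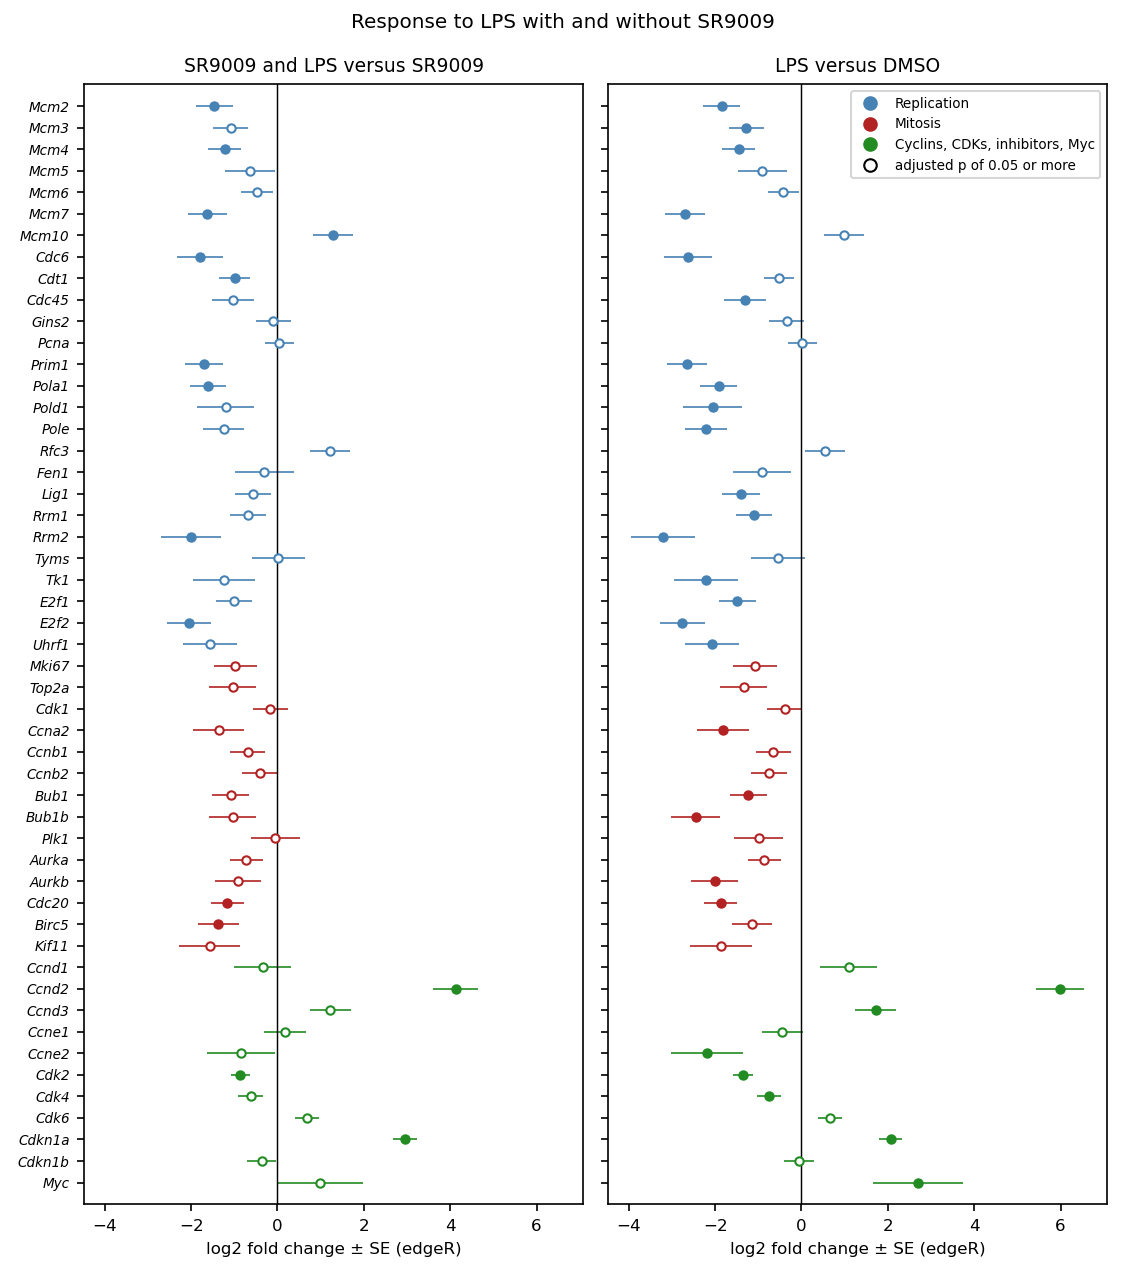
Log2 fold changes with SE (edgeR) of the 51 genes for SR9009 and LPS versus SR9009 (left) and LPS versus DMSO (right); filled points have an adjusted p under 0.05, and colour gives the group. The replication and mitosis points lie mostly left of 0 in both panels, with Mcm10 to the right, and Ccnd2 and Cdkn1a are the farthest right among filled points in the left panel.

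SR9009 set against DMSO asks for changes in cells that received no LPS. By edgeR, 0 of the 51 genes rose and 0 fell, against 0.313% and 0.566% of all tested genes, and at an unadjusted p under 0.05 there was 1, Cdkn1a. DESeq2 and limma-voom also called 0 of the 51, as did the fit without the SR9009 library of mouse 1. No gene had groups without overlap in either direction, against 4.9% of all tested genes higher and 4.64% lower. Cdkn1a had 104, 252, 154 and 186 CPM in SR9009 cells and 249, 250.2, 259 and 328 CPM in DMSO cells (log2 fold change −0.64 ± 0.26, adjusted p = 0.366); the SR9009 library of mouse 2 lay within the DMSO range. The median log2 fold change was −0.28 for replication, −0.21 for mitosis and −0.12 for the regulators. Standard errors of single genes were large relative to these medians, for example −0.43 ± 0.44 for Mcm7, 0.24 ± 0.50 for Mki67 and −0.36 ± 0.66 for Ccnd1, so the missed threshold does not show that the levels were alike.

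Cells given both agents were then set against cells given LPS, which asks how SR9009 pretreatment bore on the response. By edgeR, 0 of the 51 genes rose and 0 fell, against 1.06% and 0.737% of all tested genes. At an unadjusted p under 0.05, Prim1, Cdk2 and Cdk6 were higher and Ccnd1 and Ccnd2 lower. DESeq2 and limma-voom each called 1 gene, Ccnd2, lower, against 2.55% and 1.03% of all tested genes. All 3 D-type cyclins were lower with both agents in 4 of 4 mice. With Cdt1 and Myc, that was so for 5 of the 51 genes, against 22.9% of all tested genes. Ccnd2 had 26.2, 77.8, 69.4 and 53.9 CPM with SR9009 and LPS and 185, 220.5, 132 and 160.5 CPM with LPS, without overlap (log2 fold change −1.62 ± 0.46, adjusted p = 0.095). Ccnd1 had 9.93, 28.3, 40.1 and 38.1 CPM with SR9009 and LPS and 103, 130.5, 70.3 and 99.2 CPM with LPS, without overlap (log2 fold change −1.79 ± 0.68, adjusted p = 0.226). Ccnd3 had 116, 151, 112 and 119.5 CPM with SR9009 and LPS and 237, 301, 220.2 and 200.1 CPM with LPS, also without overlap (adjusted p = 0.404). Groups that did not overlap in this direction were found for these 3 of the 51 genes, against 7.78% of all tested genes. With mouse number in the model, Ccnd1 (adjusted p = 0.0432) and Ccnd2 (0.0475) passed. With the SR9009 library of mouse 1 left out, Ccnd2 and Ccnd3 passed (2 of the 51 genes), with both changes all 3 cyclins passed, and without mouse 1 in any group Ccnd3 passed alone. The share of all tested genes that fell was then also higher, at 4.79% without that library, 9.7% with both changes, 2.89% without mouse 1 and 1.78% with mouse number alone. Among these settings, the share of the 51 genes was below that of all tested genes except with mouse number alone. In a fit of the compared groups alone, 3 of the 51 genes fell, against 2.24% of all tested genes.

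Prim1 had 7.64, 6.48, 3.36 and 2.49 CPM with SR9009 and LPS and 2.25, 1.75, 2.16 and 3.85 CPM with LPS (log2 fold change 0.99 ± 0.46, edgeR adjusted p = 0.351), with overlap in the libraries of mice 3 and 4. Cdk2 had 34.0, 31.5, 24.0 and 22.8 CPM with SR9009 and LPS and 16.1, 22.5, 21.8 and 19.3 CPM with LPS (log2 fold change 0.49 ± 0.22, adjusted p = 0.341), and its groups did not overlap. That was the only one of the 51 genes higher without overlap, against 6.66% of all tested genes. Cdk6 had 172, 124, 87.7 and 97.3 CPM with SR9009 and LPS and 71.0, 58.9, 80.4 and 109 CPM with LPS (log2 fold change 0.59 ± 0.28, adjusted p = 0.365), and the groups overlapped. Cdkn1a had high levels in both groups, with 1624, 1660.0, 968 and 1120.0 CPM with SR9009 and LPS and 1388, 1167, 939 and 1068 CPM with LPS (adjusted p = 0.785). Myc had 0.294, 1.71, 17.7 and 23.2 CPM with SR9009 and LPS and 3.49, 7.70, 31.5 and 39.9 CPM with LPS. It was lower in 4 of 4 mice (edgeR adjusted p = 0.767), as were 22.9% of all tested genes. In all 4 groups its libraries of mice 3 and 4 were above those of mice 1 and 2.

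**Figure D3:**
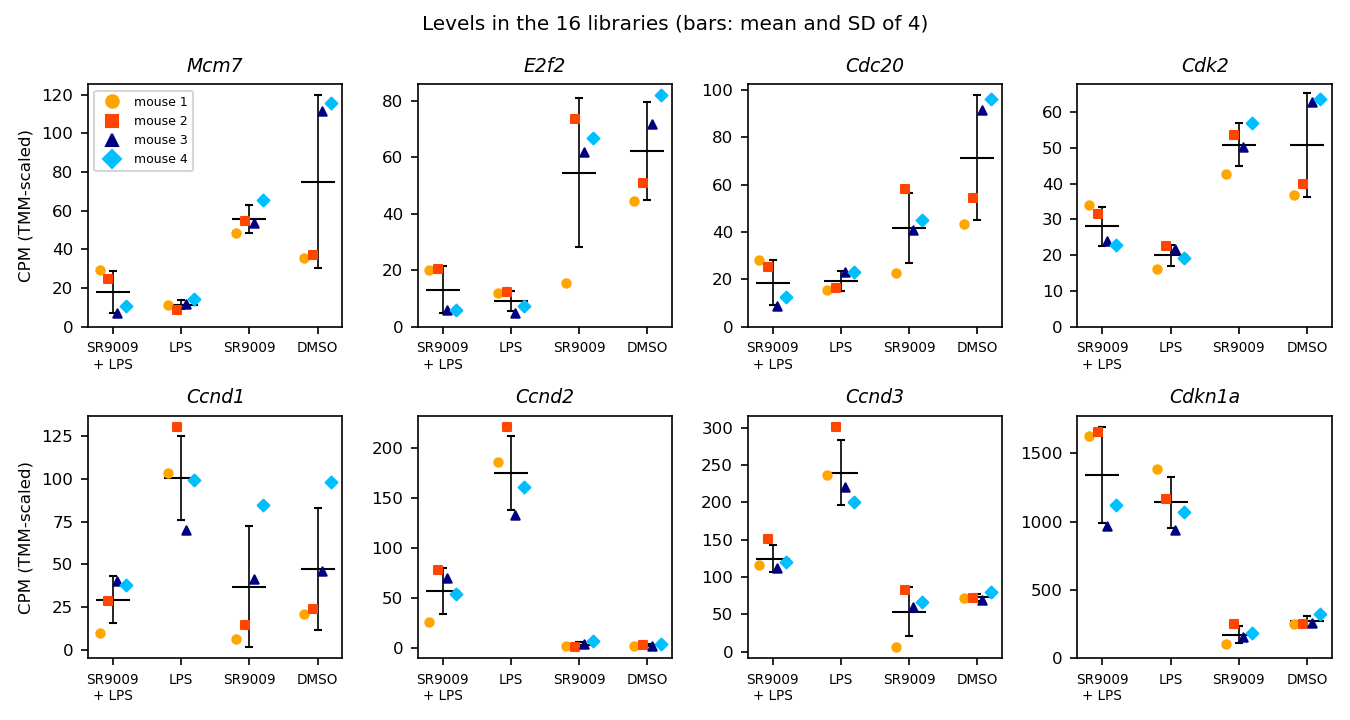
CPM of 8 genes in the 16 libraries, with groups ordered SR9009 and LPS, LPS, SR9009 and DMSO, 1 symbol per mouse, and bars for the mean and SD of 4 libraries. Mcm7, E2f2, Cdc20 and Cdk2 have lower means in the groups with LPS; Ccnd1, Ccnd2 and Ccnd3 are lower with SR9009 and LPS than with LPS in all 4 mice; Cdkn1a is high in both groups with LPS.

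The interaction term, which takes the SR9009 difference in unstimulated cells from that in LPS-stimulated cells, gave 0 genes in each direction by edgeR (0% and 0.00744% of all tested genes). DESeq2 and limma-voom also called 0. At an unadjusted p under 0.05 there were 2, Cdkn1a at 0.88 ± 0.36 (adjusted p = 0.612) and Ccnd2 at −1.86 ± 0.66 (adjusted p = 0.526) on the log2 scale. The LPS responses of the 51 genes with and without SR9009 were therefore not shown to differ.

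The 4 mice did not move together with SR9009. In SR9009 and LPS against LPS, 34 of the 51 genes were higher in mice 1 and 2 and lower in mice 3 and 4, a pattern seen in 9.13% of all tested genes. It held for 14 of 14 mitosis genes, 19 of 26 replication genes and 1 of 11 regulators, Ccne2. The median log2 difference over the mitosis genes was 0.895 in mouse 1, 0.898 in mouse 2, −1.16 in mouse 3 and −1.04 in mouse 4. Over the replication genes the medians were 0.799, 0.662, −0.587 and −0.439 in mice 1 to 4. The medians over all tested genes were within 0.022 of 0 in each mouse. Kif11 had 101, 78.8, 10.5 and 10.5 CPM with SR9009 and LPS and 45.7, 24.6, 24.3 and 26.7 CPM with LPS, so that the first group held both the highest and the lowest libraries. Bub1b showed the same spread, with 77.6, 55.1, 8.66 and 10.6 CPM with SR9009 and LPS and 27.2, 15.6, 20.8 and 19.3 CPM with LPS. The opposite pattern, lower in mice 1 and 2 and higher in mice 3 and 4, was found in 0 of the 51 genes and 6.93% of all tested genes.

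In SR9009 against DMSO, 28 of the 51 genes were higher in mice 1 and 2 and lower in mice 3 and 4, against 7.17% of all tested genes. These were 12 of 14 mitosis genes, 13 of 26 replication genes and 3 of 11 regulators. The median difference over the mitosis genes was 1.06 in mouse 1, whose SR9009 library stood apart, 0.476 in mouse 2, −1.15 in mouse 3 and −1.08 in mouse 4. In the other 3 mice, 47 of the 51 genes were higher in mouse 2, 46 were lower in mouse 3 and 48 were lower in mouse 4. The shares of all tested genes were 54.0%, 45.1% and 46.9%. Birc5 had 88.6, 36.9, 28.0 and 30.6 CPM in SR9009 cells and 23.0, 26.5, 60.7 and 65.5 CPM in DMSO cells, so that mice 1 and 2 were the higher pair with SR9009 and the lower pair with DMSO.

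**Figure D4:**
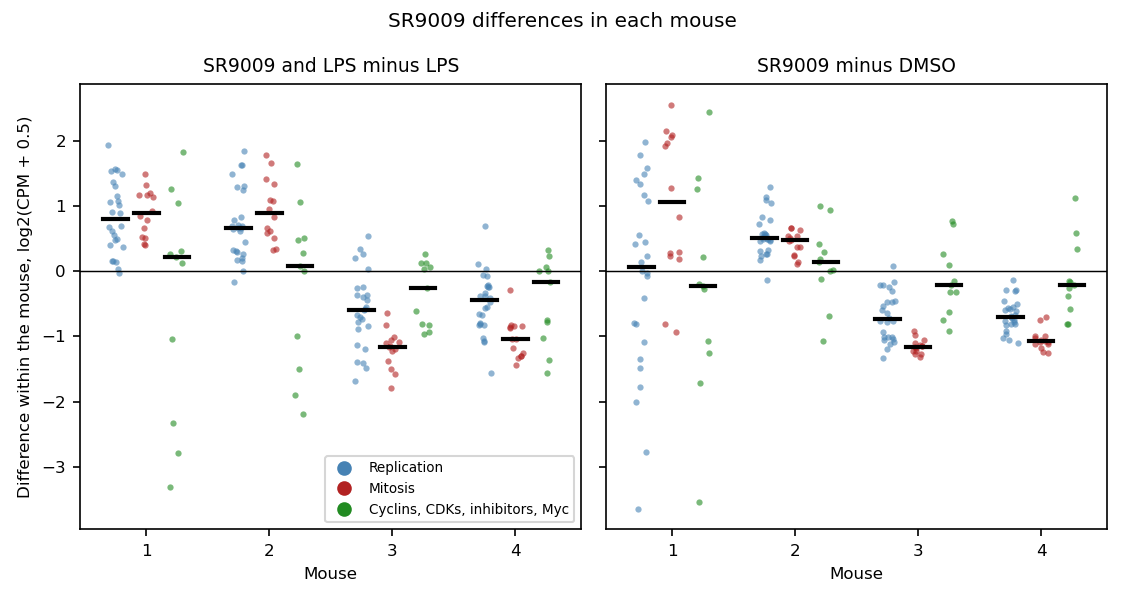
Differences within each mouse on log2(CPM + 0.5) for SR9009 and LPS minus LPS (left) and SR9009 minus DMSO (right); each point is 1 gene, colour gives the group and black bars are medians. The mitosis points lie above 0 in mice 1 and 2 and below 0 in mice 3 and 4 in the left panel, and the same holds for most of them in the right panel.

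The highest libraries came from different mice in different groups. In SR9009 and LPS cells, mice 1 and 2 had the 2 highest libraries in 39 of the 51 genes, including all 14 mitosis genes (34.7% of all tested genes). In DMSO cells, mice 3 and 4 had the 2 highest libraries in 48 of the 51 genes, including all 26 replication and all 14 mitosis genes (27.7% of all tested genes). In LPS cells mice 3 and 4 were the 2 highest in 28 of the 51 genes (33.9% of all tested genes), 19 of them replication genes, and in SR9009 cells in 18 (24.7%). The summed mitosis level was 1480, 1149, 319 and 371 CPM with SR9009 and LPS, 748, 587, 702 and 743 CPM with LPS, 2929, 1327, 1020 and 1159 CPM with SR9009, and 934, 998, 2323 and 2348 CPM with DMSO. Mice 1 and 2 were thus the higher pair with both agents and the lower pair in DMSO. The median SD between the 4 libraries of a group on the log2 scale was 0.732 for the 51 genes with SR9009 and LPS and 0.335 over all tested genes, and in DMSO it was 0.808 and 0.169. It was 0.31 and 0.269 with LPS, where the mice lay closest in the 51 genes, and 0.608 and 0.578 with SR9009, whose mouse 1 library stood apart. The summed macrophage markers were 7720, 7980, 8120 and 7760 CPM with SR9009 and LPS and 9830, 10300, 7300 and 6500 CPM in DMSO cells. Total counts were also higher in DMSO for mice 3 and 4, at 23889957 and 24214863, than for mice 1 and 2, at 18539925 and 22399589. The part of macrophage marker level, depth or culture conditions in these differences was not tested, and the differences between mice have no replicate within a mouse.

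Compared per length on the authors' deposited FPKM values, Cdkn1a ranked first of the 51 genes in SR9009 and LPS cells (mean 375 FPKM), LPS cells (323) and DMSO cells (74.3), and Ccnb2, cyclin B2, ranked first in SR9009 cells (55.3). Without the SR9009 library of mouse 1, which stood apart, Cdkn1a ranked first there too, at 51.8 FPKM, against 44.1 for Pcna and 43.1 for Ccnb2. Pcna ranked 2nd or 3rd in every group, at 50.4, 45.2, 47.5 and 43.4 FPKM with both agents, LPS, SR9009 and DMSO. Ccnd2 ranked last in SR9009 and in DMSO cells (means of 0.324 and 0.284 FPKM) and 6th in LPS cells (18.7 FPKM). Cdc6 ranked last in both groups with LPS (0.498 FPKM with SR9009 and LPS, 0.345 FPKM with LPS). Among the D-type cyclins, mean FPKM in LPS cells was 27.5 for Ccnd3, 21.6 for Ccnd1 and 18.7 for Ccnd2, and in DMSO cells Ccnd1 (9.79) and Ccnd3 (8.08) were both well above Ccnd2.

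A further 138 cell cycle genes from general knowledge, of which 137 were tested, held 64 that fell and 12 that rose in LPS against DMSO, with a median log2 fold change of −0.92 (20.4% of all tested genes fell and 19.4% rose). Of these, other replication genes fell in 22 of 37 cases and other mitosis genes in 25 of 44. Chek2, a DNA damage checkpoint kinase, had means of 4.08 CPM in LPS cells and 32.6 CPM in DMSO cells (log2 fold change −2.99), and Tfdp2, a partner of E2F factors, had 1.35 CPM in LPS cells and 31.0 CPM in DMSO cells (−4.51). Gadd45b, a stress-induced growth arrest gene, had means of 311 CPM in LPS cells and 12.4 CPM in DMSO cells (4.65). Pttg1, which encodes securin, had 130.0 CPM in LPS cells and 20.6 CPM in DMSO cells (2.66), against the direction of most mitosis genes. In SR9009 against DMSO, 1 of the 137 rose and 1 fell (0.313% and 0.566% of all tested genes). Gadd45a, a stress-induced growth arrest gene like Gadd45b, had 49.3, 14.5, 22.5 and 17.7 CPM in SR9009 cells and 6.69, 5.73, 6.82 and 6.28 CPM in DMSO cells (log2 fold change 2.02, edgeR adjusted p = 0.0316; 1.47 and 0.0375 without the SR9009 library of mouse 1). Btg2, an antiproliferative gene, had 25.4, 46.2, 37.4 and 30.6 CPM in SR9009 cells and 71.1, 79.3, 64.5 and 61.6 CPM in DMSO cells (−0.99, adjusted p = 0.0253). Neither gene's groups overlapped. In SR9009 and LPS against LPS, 2 of the 137 fell (0.737% of all tested genes): Max, the partner of MYC, with 142.9 ± 11.3 CPM with both agents and 235 ± 9.70 CPM with LPS (SD, n = 4 each) (log2 fold change −0.71, edgeR adjusted p = 0.0328), and again Btg2, with 49.0 ± 4.44 CPM with both agents and 85.9 ± 12.5 CPM with LPS (−0.81, adjusted p = 0.0445). Max had risen in LPS against DMSO, from a mean of 71.1 CPM in DMSO cells (log2 fold change 1.72, edgeR adjusted p = 8.24e-07). Its level with both agents thus stayed above that in DMSO cells. The pattern of higher in mice 1 and 2 and lower in mice 3 and 4 was found in 71 of the 137 (51.8%) in SR9009 and LPS against LPS and in 70 (51.1%) in SR9009 against DMSO.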

How the data were processed

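The 16 libraries were made from poly(A) RNA, per the labels' protocols. HISAT2 and the build GRCm39 are named in the submitters' processing notes. How reads were counted, on which strand and over which annotation is not given in the sources used. The deposited table held raw counts per gene. The deposited FPKM values, named so in the file headers, are counts per length over a constant for each library. From the values, the authors' constant was the same multiple of the DESeq2 median-of-ratios size factor in all 16 libraries and not of the total count, relative to which it was lower in all 8 libraries with LPS than in all 8 without.

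The main tool was edgeR 4.0.16 in R 4.3.3, with DESeq2 1.42.0 and limma 3.58.1 as alternatives. Tables were made in Python 3.11.15 (scipy 1.17.1, numpy 2.4.6, pandas 2.3.3) and figures in matplotlib 3.10.9. Of 56748 genes, 13438 passed filterByExpr (minimum count 10, minimum total 15). A robust quasi-likelihood fit used TMM scaling and a separate mean for each of the 4 groups in all 16 libraries, and p was adjusted by Benjamini-Hochberg over all tested genes with a threshold of 0.05. The SE is the log2 fold change over the square root of its F statistic. Differences within a mouse used log2(CPM + 0.5). Same-numbered libraries come from the same mouse, which pairs them: their deviations from group means correlated with r of 0.0809 to 0.56 over 24 pairs (median 0.249). Over 72 pairs of different mice and groups, r was −0.567 to 0.522 (median −0.0899), so the ranges overlapped. The model with mouse number as a block is an alternative, quoted where it changed a call.

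The 51 members, the other lists, the tests and the alternatives were chosen with earlier results of these data known. Genes given in every library were named by rule, from the calls of each role in LPS versus DMSO; genes beyond these 16 were chosen after their values were seen. Alternatives were upper-quartile or RLE scaling, a stricter filter or none, DESeq2, limma-voom, limma on log2 FPKM plus 1 or 0.1, the replicate block, the compared groups alone, each mouse left out, and the SR9009 library of mouse 1 left out. GC content came from GENCODE M21 transcripts. The fits were tested on simulated data. Depth limits precision for genes of few counts. The p-values of the main fit cover the spread between the libraries of a group, which come from these 4 mice, and leave out the pairing by mouse.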

Additional observations from a re-analysis of the deposited data

Results flagged for a closer look

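In the 16 genes described in every library, 64 groups of 4 libraries were examined for a library far from the other 3, and 2 passed Dixon's 95% critical value; chance alone gives about 1 in 20 groups. E2f1 had its lowest SR9009 level in mouse 1, at 8.92 CPM, and the nearest SR9009 library had 48.0 CPM. That library also stood apart across the 51 genes. Cdkn1a had its highest DMSO level in mouse 4, at 328 CPM, and the nearest DMSO library had 259 CPM. It left the Cdkn1a comparison of LPS with DMSO without overlap.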

How the results depend on the processing

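Over 58 results and 926 recalculations, 749 kept their direction and their side of the threshold, 145 lost the call, 31 gained it and 1 changed sign, Myc in SR9009 and LPS against SR9009, which was −0.095 with limma-voom. With a mouse or the SR9009 library of mouse 1 left out, the genes higher in LPS against DMSO numbered 2 to 6 and those lower 12 to 31. Over all tested genes, 13.5% were higher and 12.5% lower without mouse 4, and 26.8% and 30.6% without that SR9009 library. Limma-voom gave 16 lower and the compared groups alone 32, against 19.6% and 32.4% of all tested genes. In SR9009 and LPS against SR9009, leaving libraries out gave 0 to 19 lower genes and 2 to 4 higher ones, with 5 higher under RLE scaling and 6 under DESeq2. Over all tested genes, 8.69% were lower and 10.1% higher without mouse 4, and 20.6% and 22.4% without mouse 1. The share higher was 15.3% under RLE scaling and 17.6% under DESeq2. In SR9009 and LPS against LPS, the count of 0 lower genes became 0 to 3 when libraries were left out, 2 with mouse number as a replicate block, 3 in the compared groups alone, and 1 each with limma-voom, with limma on log2 FPKM plus 1 or plus 0.1, and with DESeq2. All were D-type cyclins. Of all tested genes, 4.79% fell without the SR9009 library of mouse 1, 1.78% with the block and 2.24% in the compared groups alone. The share was 1.03% with limma-voom, 1.85% and 1.24% with FPKM plus 1 and plus 0.1, and 2.55% with DESeq2. The higher ones numbered 0 to 1 (E2f1, without the SR9009 library of mouse 1 and with the block, when 11.6% of all tested genes rose). In the interaction the lower ones numbered 0 to 1 (Ccnd3, same setting, when 0.791% of all tested genes were lower). Beyond the calls named in the report, the replicate block changed no call of the genes followed here. The cause of these changes was not tested. The counts of SR9009 against DMSO were 0 under every setting run. Depth, at 12616442 to 24214863 counts per library, limits the genes of few counts.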
